A study of Mus musculus with 6 samples.

Results

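The genes described here encode voltage-gated sodium channels, voltage-gated calcium channels and hyperpolarization-activated HCN channels, with their auxiliary subunits. They are the 36 genes, of 54658 in the count tables, whose symbols follow the naming of these families: 10 sodium channel alpha and 4 beta subunits, 10 calcium channel alpha1 subunits, 4 alpha2delta and 4 beta subunits, and 4 HCN channels. Bulk RNA was sequenced from the nucleus accumbens, a ventral striatal region, of male C57BL6 mice aged 8 weeks. The tissue had been injected with a herpes simplex virus p1005+ vector, which carried the long noncoding RNA Gas5 with EGFP in 3 libraries (the Gas5 group) and EGFP alone in 3 libraries (the GFP group). The libraries of each group are lettered A, B and C. All 6 libraries therefore come from injected, virus-exposed tissue, and no uninjected tissue was analysed here. A virus of this kind reaches only the cells it infects, while the RNA came from the whole dissected tissue, depleted of ribosomal RNA. The labels state neither the time after injection nor the share of infected cells, nor do they say if 1 mouse or several gave each sample. The p-values therefore cover only the variation among these samples, which may be technical.

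Sodium channel alpha subunits form the pore that opens the action potential, and beta subunits set their gating and membrane placement. Calcium channel alpha1 subunits form the calcium pore. The L-type pores couple activity to gene expression, the P/Q-, N- and R-type pores drive transmitter release, and the T-type pores open near rest and support burst firing, while alpha2delta and beta subunits bring the pore to the membrane. HCN channels open on hyperpolarization and carry an inward current that cyclic nucleotides increase. Medium spiny neurons, the principal cells of the accumbens, rest at hyperpolarized potentials, and both their firing and the glutamate release from their cortical inputs depend on these families.

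Of the 36 genes, 33 had 10 or more counts in at least 3 libraries and were tested. Scn2b had 0 counts in every library. Its whole span of 12289 bases is covered by Gm10684 on the opposite strand, and 0 of 1237 protein-coding genes so covered had a count in these tables, so Scn2b could not be measured. Scn4a, the skeletal muscle sodium channel, had 1 count in GFP A and 0 elsewhere. The filter fell between Scn11a, with 10 or more counts in 2 libraries (19 and 13), and Scn10a, with 4 such libraries and counts between 8 and 29. Together the 36 genes made up 0.942% to 1.07% of the counts, depending on the library. They are long, with a median span of 111 kb among those tested against 23.9 kb over all tested genes. Counts were taken over whole gene spans, so intronic reads contribute to every value.

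Total counts lay between 32359052 and 56081575 per library. Gas5 RNA itself was higher in the Gas5 group, at 22.6, 23.3 and 23.6 CPM in libraries A, B and C (CPM scales a count to the size of its library), against 18.6, 16.5 and 18.3 CPM in the GFP group. Its log2 fold change was 0.38 with an edgeR adjusted p of 0.0164, and the exact permutation test gave 0.1, 2-sided, the smallest value possible with 3 against 3 libraries. Markers of medium spiny neurons were present in every library and edgeR called 0 of 12, with 1 at an unadjusted p under 0.05, while DESeq2 called 1 higher and limma-voom 0. The 11 markers of cortical excitatory neurons were also detected, and edgeR called 8 of them lower in the Gas5 group and 0 higher. Over all tested genes 3.94% were called lower and 1.46% higher. Fezf2 had a log2 fold change of -1.33 without passing, and Cux2 (-0.01) and Lamp5 (0.10) overlapped between the groups. The mean log2 CPM of all 11, called the cortical marker score here, ran 1.997, 2.67, 2.86 over the Gas5 libraries in the order A, B, C. Over the GFP libraries it ran 3.85, 4.34, 4.39. Gas5 A had the lowest cortical marker score and, as described further on, the lowest value of many channel genes. In bulk RNA, fewer cells of a type in the tissue taken and less RNA per cell cannot be told apart. Why the cortical markers were lower in the Gas5 group was not tested.

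The promoter windows of Scn1a and Cacnb3 are shown because these members passed the test below and are in the RefSeq promoter table for GRCm38.p6. Each window holds the 250 bases before a RefSeq start, written 5′ to 3′ on the strand of the gene. Capitals mark matches to GGGCGG, the core of an Sp1 box, on either strand. The Scn1a window lies at chr2:66440838-66441087 on the minus strand, and the Cacnb3 window at chr15:98634517-98634766 on the plus strand. This Cacnb3 window lies inside the listed span of the gene, which begins at 98630840, so it precedes an internal start. Another Cacnb3 window is not printed and is only counted among the member windows.
Scn1a: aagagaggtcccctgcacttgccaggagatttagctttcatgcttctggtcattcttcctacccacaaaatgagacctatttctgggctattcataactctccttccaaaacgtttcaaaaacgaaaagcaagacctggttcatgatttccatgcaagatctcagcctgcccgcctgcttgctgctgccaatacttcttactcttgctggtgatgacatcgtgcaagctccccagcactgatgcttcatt
Cacnb3: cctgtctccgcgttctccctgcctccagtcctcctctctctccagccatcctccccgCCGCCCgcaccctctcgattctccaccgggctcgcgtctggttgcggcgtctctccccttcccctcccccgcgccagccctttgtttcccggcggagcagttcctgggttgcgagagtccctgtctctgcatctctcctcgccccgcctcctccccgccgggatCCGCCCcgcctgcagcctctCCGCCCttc
The Scn1a window has 4 CG pairs and 0 Sp1 matches, and the printed Cacnb3 window has 23 CG pairs and 3 Sp1 matches. The median over all 32851 windows was 6 CG pairs, and GGGCGG was found in 32.7% of them. Among the 36 windows of the 26 members in the table, 15 held GGGCGG and the median was 9 CG pairs. TATAAA was found in 2 member windows and in 12.4% of all windows. Neither TGACGTCA, the full cyclic AMP response element, nor the full palindromic glucocorticoid response element was found in a member window on either strand. They occurred in 1.55% and 0.00913% of all windows. The matches printed in capitals do not overlap each other.

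The channel genes were ordered by level per length, in CPM per kb of span that no other listed gene covers. This length includes introns, so the order depends on gene structure and can differ from the order in CPM. Scn4b, whose product blocks open sodium channels and shapes resurgent current, stood highest of the members described, at 25.9 CPM per kb ± 2.93 in the GFP group and 25.0 ± 4.92 in the Gas5 group (SD, n = 3 each). Among sodium channel alpha subunits the order in the GFP group was Scn2a at 3.01, Scn8a at 2.68, then Scn3a and Scn1a, the latter at 1.47 CPM per kb, and the libraries of Scn3a and Scn1a overlapped. Scn9a was at 0.181, and Scn7a and Scn10a were at 0.00841 and 0.00509. The calcium channel alpha1 subunits Cacna1e, Cacna1h, Cacna1b, Cacna1i, Cacna1c and Cacna1a lay close together, between 2.42 and 1.75 CPM per kb. Within this series of 6 the GFP libraries of Cacna1h and Cacna1b overlapped, as did those of Cacna1i and Cacna1c and those of Cacna1c and Cacna1a. Cacna1d at 0.844 and Cacna1g at 0.627 stood lower, and the retinal Cacna1f and the skeletal muscle Cacna1s were at 0.0472 and 0.0068. Cacna2d3 led the alpha2delta subunits at 3.21 and Cacnb1 the calcium channel beta subunits at 5.37. In CPM not divided by length, Cacnb1 at 115 in the GFP group stood below Cacnb2 at 725 and Cacnb4 at 599. Hcn2 led the HCN channels at 4.74 CPM per kb, ahead of Hcn3 at 0.657 and Hcn4 at 0.178. With the whole span as the length, Scn9a, which shares 42.8% of its span with other genes, stood at 0.104 CPM per kb.

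**Figure D1:**
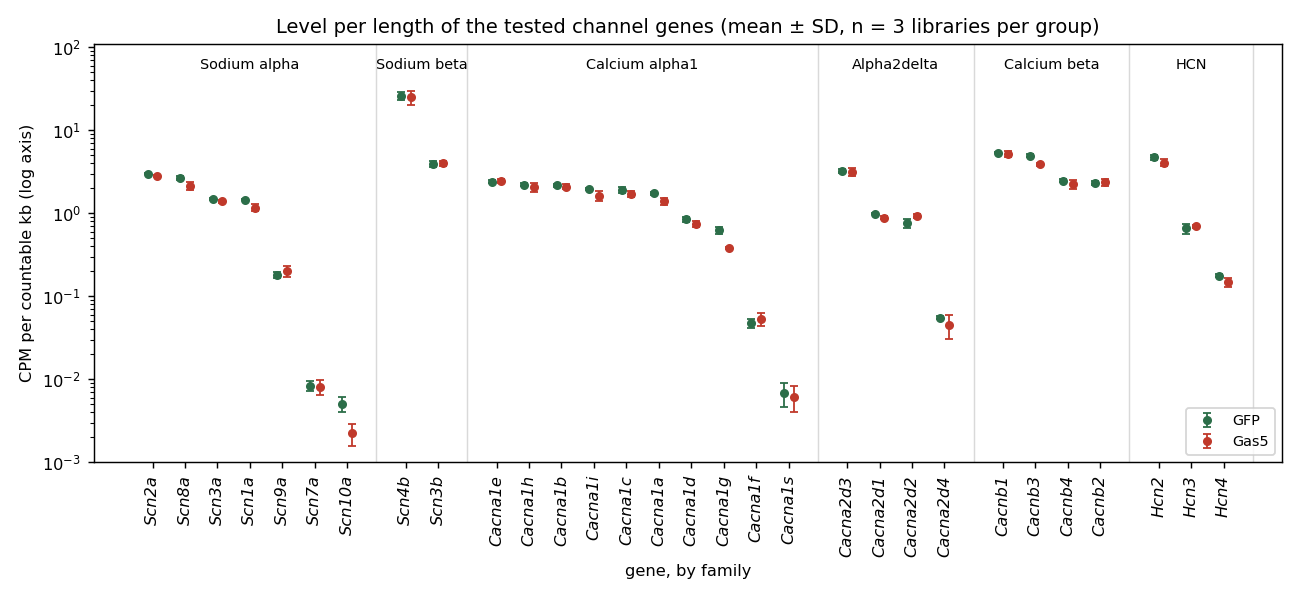
Level per length of 30 tested channel genes, in CPM per countable kb on a log axis, ordered within each family by the GFP group. Points are means and bars are SD of 3 libraries, green for GFP and red for Gas5. Scn4b stands highest and Scn10a and Cacna1s lowest, and most pairs of points lie close together.

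In the comparison of Gas5 with GFP tissue, 3 of the 33 tested channel genes were lower in the Gas5 group and 0 were higher (edgeR quasi-likelihood test, adjusted p under 0.05 over all 17693 tested genes). The 3 were Cacna1g, a T-type calcium pore, Cacnb3, a calcium channel beta subunit, and Scn1a, a sodium channel pore. The lower calls made up 9.09% of the tested members, against 3.94% of all tested genes called lower, 1.46% called higher and 5.4% called in either direction. Of the 20 tested members spanning over 100 kb 1 was called lower, Scn1a, against 10.2% of the 2620 tested genes of such span. Cacna1g and Cacnb3 are shorter. At an unadjusted p under 0.05 there were 13 lower members and 1 higher, together 42.4% of those tested against 21.4% of all genes. DESeq2 called 7 lower and 1 higher, and limma-voom 4 lower and 0 higher.

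The differences were small. The median log2 fold change of the 33 members was -0.11, against 0.02 over all tested genes and -0.03 over genes spanning over 100 kb. A negative value was found for 25 members, or 75.8%, against 45.8% of all genes. In 13 members all Gas5 libraries lay below all GFP libraries, and in 1 member, Cacna2d2, all lay above. These are 39.4% and 3.03% of the members, against 13.9% and 13.7% of all tested genes, or 27.7% in either direction. Log2 fold changes ran from -1.18 for the barely detected Scn10a to 0.29 for Cacna2d2. Scn10a is among the 13 and among the members at an unadjusted p under 0.05. It reached 10 counts in all GFP libraries but only in Gas5 B of the Gas5 group. It thus passed the filter mainly through the group where it is higher. Scn11a, whose mean CPM was higher with Gas5, did not pass the filter and is in none of these counts.

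**Figure D2:**
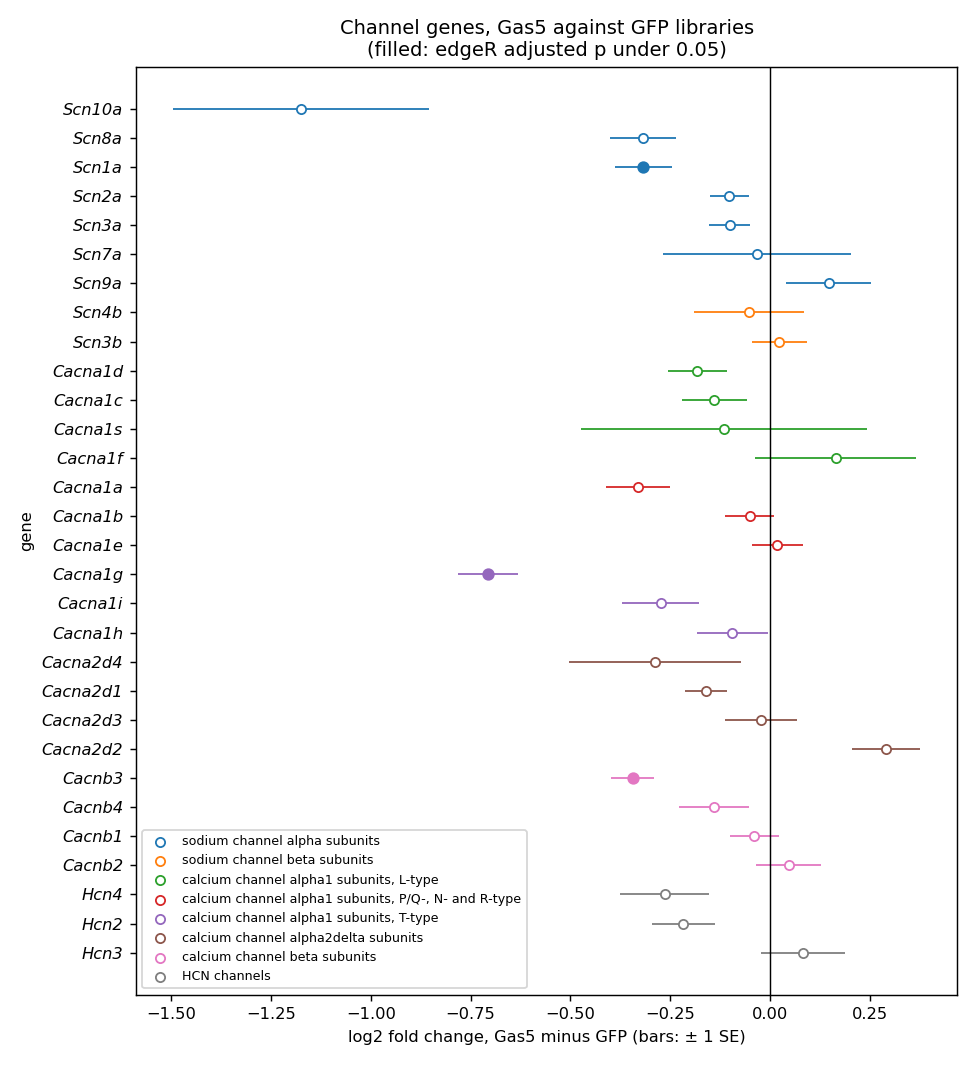
Log2 fold change, Gas5 minus GFP, of 30 tested channel genes, grouped by role, with bars of 1 standard error. Filled points passed an edgeR adjusted p of 0.05: Cacna1g, Cacnb3 and Scn1a lie left of 0, and Scn10a (-1.18) lies farther left than Scn1a (-0.32) without passing.

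Library Gas5 A stood apart. Of the 33 tested members, 20 had their lowest value in it, against 7 in Gas5 B and 1 in Gas5 C. The median deviation of the members from their own mean was -0.18 on the log2 scale in Gas5 A, -0.03 in Gas5 B and -0.0070 in Gas5 C, and between 0.05 and 0.09 in the GFP libraries. The cortical marker score was lowest in the same library, at 1.997. Other cell type markers also set Gas5 A apart. Their mean log2 CPM was lowest in it for interneuron (3.32) and oligodendrocyte (6.31) markers. It was highest in it for astrocyte (6.65) and microglia (5.01) markers. Without Gas5 A the median log2 fold change of the members was -0.09, against -0.16 without Gas5 B and -0.19 without Gas5 C. Without Gas5 A, Cacna1g and Cacnb3 kept their calls while Scn1a did not. A fit that adds the cortical marker score as covariate, called the covariate fit here, was also made. In it edgeR called 0 members, with 3 at an unadjusted p under 0.05, and 0 genes in all, with 389 at an unadjusted p under 0.05. The median of the members was then 0.02. The score separates the groups without overlap, so its part and that of the group cannot be told apart. In this fit the log2 fold change of Cacna1g was -0.56 against -0.71, and its standard error 0.219 against 0.0749.

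**Figure D3:**
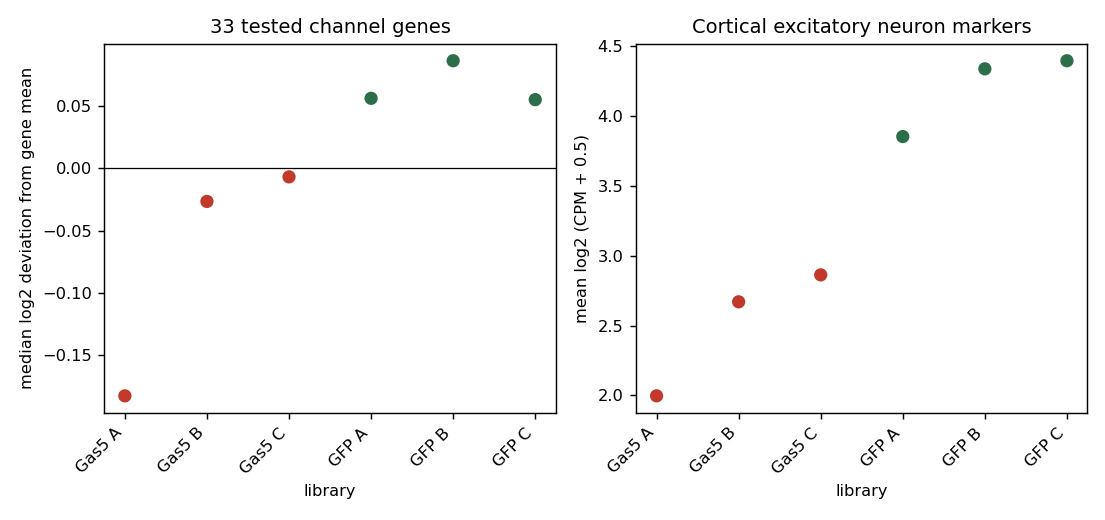
Left, the median log2 deviation of the 33 tested channel genes from their own means in each library. Right, the cortical marker score, the mean log2 (CPM + 0.5) of 11 markers. Both are lowest in Gas5 A and higher in all 3 GFP libraries (green) than in all 3 Gas5 libraries (red).

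Among the 8 tested sodium channel alpha subunits 1 fell and 0 rose, and their median log2 fold change was -0.10. Scn1a encodes Nav1.1, a pore of the axon initial segment that fast-spiking interneurons rely on. Libraries A, B and C of the Gas5 group gave 177, 173 and 208 CPM, and those of the GFP group 235, 232 and 227 CPM. All Gas5 libraries were below all GFP libraries, and Gas5 C was nearest to them. The log2 fold change was -0.32 (standard error 0.0720, edgeR adjusted p 0.0427), or 1.25-fold lower. The gene spans chr2:66270778-66440840 on the minus strand of GRCm38, and 7.11% of the span, shared with the antisense Gm13630, is not counted. The call was kept under 9 of 17 alternatives and lost with upper quartile scaling (adjusted p 0.0533), with the trend along gene span removed (0.0616), without Gas5 A (0.0943), Gas5 B (0.0721), GFP A (0.0977), GFP B (0.161) or GFP C (0.142), and in the covariate fit (log2 fold change -0.13, adjusted p 1.0).

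Scn8a encodes Nav1.6, the main pore of the mature axon initial segment and nodes. Its values were 335, 414 and 387 CPM with Gas5, against 442, 483 and 490 CPM with GFP, with no overlap. The log2 fold change of -0.32 (standard error 0.0822) was as large as that of Scn1a, but the edgeR adjusted p was 0.0625, so it did not pass. It passed under 4 of 18 alternatives, among them DESeq2 (0.00546). Scn2a encodes Nav1.2, a pore of dendrites and immature axons. It was at 404, 411 and 421 CPM against 439, 453 and 434 CPM, which do not overlap, for a log2 fold change of -0.10 (edgeR adjusted p 0.270). Scn3a, most abundant in the developing brain, had a log2 fold change of -0.10 with overlapping groups. Whether Scn1a and Scn8a differed more than Scn2a and Scn3a was not tested. As shares of the summed alpha subunit level per kb, Scn2a made up 35.6% ± 0.718 with Gas5 and 33.5% ± 0.398 with GFP (SD, n = 3 each), without overlap. The share of Scn3a, 17.7% against 16.6%, did not overlap either. The shares of Scn1a, 14.9% against 16.3%, and of Scn8a, 27.2% against 29.8%, overlapped between the groups. A share depends on the other members of the sum. The shares of Scn2a and Scn3a were larger with Gas5 although both genes had negative log2 fold changes.

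The next alpha subunits are known from tissues outside the striatum. Scn9a, of sensory and sympathetic neurons, had a log2 fold change of 0.15 with overlapping groups and an edgeR adjusted p of 0.476. Scn7a, a sodium-sensing channel, had between 30 and 46 counts in every library and a log2 fold change of -0.03. Scn10a, a pore of pain-sensing neurons, had only 8, 14 and 9 counts with Gas5, against 29, 27 and 15 with GFP. The groups did not overlap in CPM, but its log2 fold change of -1.18 (standard error 0.320) had an edgeR adjusted p of 0.0730, and counts this low limit its precision. Scn11a, untested, had 19, 13 and 7 counts against 3, 7 and 6.

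Of the sodium channel beta subunits, Scn4b and Scn3b overlapped between the groups. Scn4b ranged from 319 to 474 CPM with Gas5 and from 357 to 447 CPM with GFP, a wide overlap, and had a log2 fold change of -0.05 (standard error 0.138, adjusted p 0.864). Scn3b, with 92.9, 80.7 and 89.1 CPM against 87.4, 91.5 and 79.3 CPM, had a log2 fold change of 0.02.

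**Figure D4:**
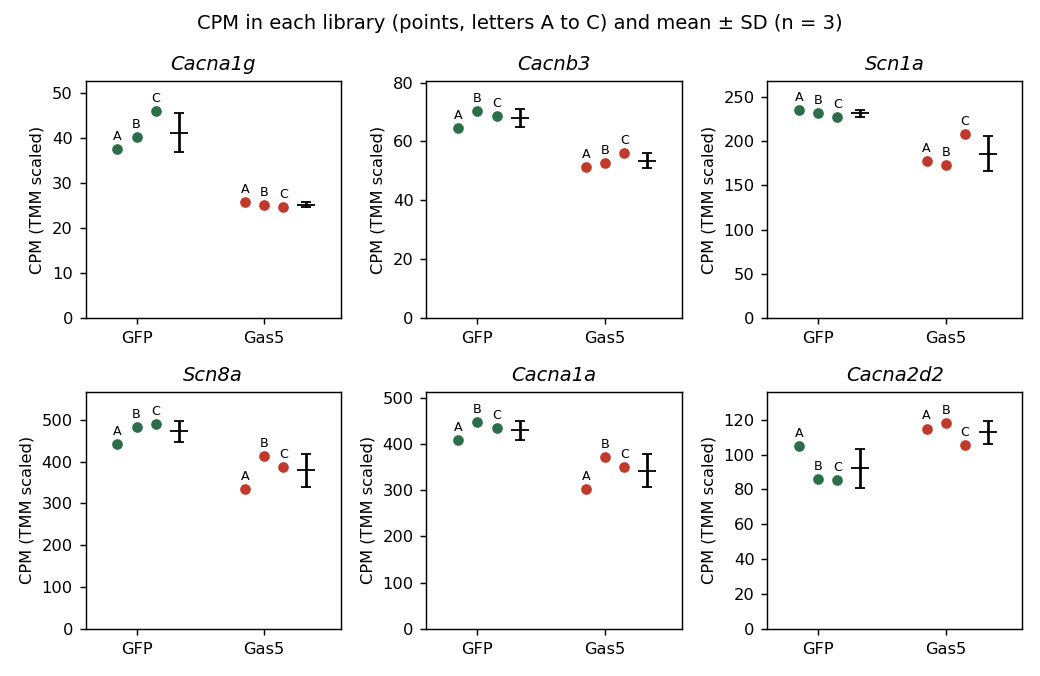
CPM of 6 channel genes in each library, GFP in green and Gas5 in red with the letters of the libraries, and mean ± SD (n = 3) in black, on axes that start at 0. The groups do not overlap in any of the 6, and Cacna1g shows the widest gap relative to its spread. Only Cacna1g, Cacnb3 and Scn1a passed the edgeR test.

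The T-type calcium pores held the member with the smallest p, Cacna1g. It encodes Cav3.1, known for burst firing in the thalamus and also present in cortical neurons. The gene stood at 25.8, 25.2 and 24.7 CPM in the Gas5 libraries, which were nearly equal, and at 37.5, 40.2 and 46.0 CPM in the GFP libraries. It was 1.63-fold lower in the Gas5 group, at a log2 fold change of -0.71 (standard error 0.0749, edgeR adjusted p 0.00464). The gene spans chr11:94408391-94474198 on the minus strand and shares no base with another listed gene. Its call was kept under 17 of 18 alternatives, with log2 fold changes between -0.77 and -0.62 when 1 library was left out. It was lost only in the covariate fit, at -0.56 on the log2 scale (standard error 0.219, adjusted p 1.0).

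The other T-type pores did not pass. Cacna1i, which encodes Cav3.3, was at 151, 198 and 194 CPM against 212, 227 and 218 CPM, without overlap, and Gas5 A was the lowest. Its log2 fold change was -0.27 (standard error 0.0963, edgeR adjusted p 0.145). Cacna1h, which encodes Cav3.2, overlapped between the groups, at 109, 141 and 120 CPM against 125, 136 and 133 CPM. Of the summed T-type level per kb, Cacna1g made up 9.47% ± 1.30 with Gas5 and 13.0% ± 1.07 with GFP, and Cacna1h 50.7% ± 1.79 and 46.0% ± 0.301 (SD, n = 3 each). Neither share overlapped between the groups. The share of Cacna1h was larger with Gas5 although its own log2 fold change was -0.09.

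Among the P/Q-, N- and R-type pores edgeR called 0 of 3, with 1 at an unadjusted p under 0.05, and DESeq2 and limma-voom each called 1 lower. Cacna1a, the P/Q-type pore of fast transmitter release, was at 303, 372 and 351 CPM with Gas5, against 408, 449 and 434 CPM with GFP, without overlap. Its log2 fold change of -0.33 (standard error 0.0796) had an edgeR adjusted p of 0.0507, just outside the threshold, and it passed under 7 of 17 alternatives. Cacna1e, the R-type pore, had the highest level per kb of the alpha1 subunits and was even between the groups, at 1158, 1266 and 1209 CPM against 1147, 1247 and 1191 CPM. The log2 fold change of Cacna1e was 0.02 and that of Cacna1b, the N-type pore, was -0.05, both with overlapping groups. Cacna1a made up 23.4% ± 1.20 of the summed level per kb of these 3 genes with Gas5 and 27.6% ± 0.126 with GFP (SD, n = 3 each), and these shares did not overlap.

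The 4 L-type pores had 0 calls with edgeR, DESeq2 or limma-voom, and 1 of them was at an unadjusted p under 0.05. Cacna1c encodes Cav1.2, the main L-type pore of forebrain neurons. It was at 923, 1057 and 1069 CPM against 1060, 1217 and 1080 CPM, with a log2 fold change of -0.14 and overlapping groups. Cacna1d, the Cav1.3 pore of striatal dendrites, was at 294, 349 and 329 CPM against 343, 378 and 382 CPM. Its log2 fold change was -0.18 (standard error 0.0739, edgeR adjusted p 0.199), and Gas5 B lay above GFP A. Cacna1f reached at most 1.74 CPM and Cacna1s 0.567 CPM, and both overlapped between the groups.

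The alpha2delta subunits, which carry channels to the membrane and include the binding sites of gabapentin, had 0 of 4 called with edgeR and 2 at an unadjusted p under 0.05, in opposite directions. DESeq2 called 1 of them higher and limma-voom 0. Cacna2d2 was the member with the largest positive value. It stood at 115, 118 and 105 CPM with Gas5, against 105, 86.1 and 85.2 CPM with GFP, so the groups only just failed to overlap, with Gas5 C and GFP A nearly equal. The log2 fold change was 0.29 (standard error 0.0855, edgeR adjusted p 0.0923). It passed under 4 of 17 alternatives, among them DESeq2 (0.0350), no expression filter (0.0232) and without GFP A (0.0178). Cacna2d1 was at 365, 386 and 404 CPM against 431, 431 and 429 CPM, with nearly equal GFP libraries and a log2 fold change of -0.16 (standard error 0.0533, adjusted p 0.127). Cacna2d3, the member with the most counts, was at 2120, 2498 and 2561 CPM against 2362, 2584 and 2344 CPM, a log2 fold change of -0.02 that was positive, at 0.06, without Gas5 A. Cacna2d4 reached at most 5.76 CPM.

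Of the 4 calcium channel beta subunits, which bind the alpha1 pore inside the cell, 1 fell and 0 rose. Cacnb3 was at 51.2, 52.8 and 56.2 CPM with Gas5, against 64.5, 70.5 and 68.6 CPM with GFP. The groups did not overlap and the spread within each was small. It was 1.27-fold lower in the Gas5 group, at a log2 fold change of -0.34 (standard error 0.0540, edgeR adjusted p 0.0134). The gene spans chr15:98630840-98644529 on the plus strand and shares no base with another listed gene. Its call was kept under 15 of 18 alternatives and lost without GFP B (adjusted p 0.0767), without GFP C (0.0729) and in the covariate fit (log2 fold change -0.09, adjusted p 1.0). Cacnb1, the beta subunit of highest level per kb, was at 104, 122 and 110 CPM against 115, 117 and 113 CPM. Cacnb4, Cacnb1 and Cacnb2 overlapped between the groups, with log2 fold changes of -0.14, -0.04 and 0.05. Cacnb3 made up 28.4% ± 1.61 of the summed beta subunit level per kb with Gas5 and 32.8% ± 1.05 with GFP (SD, n = 3 each).

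Of the HCN channels described here, Hcn2 and Hcn4 had negative log2 fold changes and Hcn3 a positive one, and none passed with edgeR, DESeq2 or limma-voom, with 2 of them at an unadjusted p under 0.05. Hcn2, the slower channel found widely in the brain, was at 70.8, 85.4 and 82.5 CPM against 99.3, 90.3 and 87.5 CPM, and its log2 fold change was -0.22 (standard error 0.0782, adjusted p 0.154). Hcn4, strongly sensitive to cyclic AMP and best known from the heart, was at 6.77, 5.26 and 5.63 CPM against 7.29, 6.82 and 7.08 CPM, with a log2 fold change of -0.26 (adjusted p 0.215) and Gas5 A just below GFP B. Hcn3 overlapped, with a log2 fold change of 0.08.

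Genes that partner with these channels were counted from lists set beside the members. For comparison with every list, edgeR called 3.94% of all tested genes lower and 1.46% higher, and 21.4% had an unadjusted p under 0.05. Of 13 sodium channel partners 1 rose and 0 fell with edgeR and with limma-voom, with 4 at an unadjusted p under 0.05 in edgeR, while DESeq2 also called 2 lower, Ank2 and Fgf12. Fgf13, an intracellular fibroblast growth factor homologue that binds the tails of sodium channels, was at 263, 226 and 247 CPM against 208, 197 and 171 CPM, 1.28-fold higher (edgeR adjusted p 0.0465). Ank2, an ankyrin, had a log2 fold change of -0.21 that passed with DESeq2 (adjusted p 0.0027) and not with edgeR (0.0808). Ank3, the organizer of the axon initial segment, was at -0.10 and did not pass with edgeR, DESeq2 or limma-voom. Of 21 tested calcium channel partners 5 fell and 0 rose with edgeR and with limma-voom, with 9 at an unadjusted p under 0.05 in edgeR, while DESeq2 also called 1 higher, Cachd1. Cabp1, which encodes a calmodulin-like regulator of calcium channels, was 1.88-fold lower (adjusted p 0.0240), at 43.8, 72.5 and 65.6 CPM against 97.0, 117 and 127 CPM. Stac2, an adaptor of L-type channels, was 1.72-fold lower (0.0247), and Rims1, an active zone scaffold, 1.38-fold lower (0.0137). Cacng2 and Cacng5, 1.29-fold and 1.47-fold lower (0.0278 and 0.0202), carry calcium channel names but are known as auxiliary subunits of AMPA receptors.

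Of 5 tested HCN partners 1 fell, Pex5l. It encodes TRIP8b, which controls HCN channel trafficking, and was at 107, 88.8 and 106 CPM against 133, 142 and 154 CPM, 1.42-fold lower (edgeR adjusted p 0.0160), with 50.5% of its span not counted. Flna, another HCN partner, had a log2 fold change of -0.24 and did not pass. The sodium leak channel complex had 0 of 4 called with edgeR, with 2 at an unadjusted p under 0.05. DESeq2 called 2 of them, and limma-voom 0. Fam155a had a log2 fold change of -0.45 (edgeR adjusted p 0.0539) and Unc80 of -0.20 (0.0773). All 7 partner calls were lost without GFP B, without GFP C and in the covariate fit. Without GFP B the log2 fold changes of Pex5l, Rims1 and Fgf13 were -0.51, -0.46 and 0.37, against -0.50, -0.46 and 0.35 with all libraries. In the covariate fit Pex5l was at -0.48 and Rims1 at -0.22, while Cabp1, Stac2, Cacng2 and Fgf13 changed sign. The calls of Fgf13 and Cacng2 were also lost without Gas5 A or Gas5 C, that of Stac2 without Gas5 C, and that of Cabp1 with robust dispersion (adjusted p 0.0629).

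Markers of other cell types were counted in the same way, and most of them did not pass with edgeR. Interneuron markers went both ways, with 2 of 9 higher and 2 lower in all Gas5 libraries than in all GFP libraries. The shares over all tested genes were 13.7% higher and 13.9% lower, and 21.4% had an edgeR unadjusted p under 0.05. Among the interneuron markers edgeR called 1, Vip, 2.77-fold lower (adjusted p 0.0217). The cholinergic markers Slc5a7 and Chat had log2 fold changes of 0.40 and 0.25 (edgeR adjusted p 0.148 and 0.183). Pvalb, a marker of fast-spiking cells, was at 0.835, 2.10 and 2.43 CPM against 3.81, 2.41 and 3.59 CPM. Its groups overlapped at these low levels and it did not pass (edgeR adjusted p 0.177). The mean log2 score of interneuron markers ran from 3.32 to 3.60 with Gas5 and from 3.64 to 3.77 with GFP. Oligodendrocyte markers had 1 of 8 lower with edgeR, 3 with DESeq2 and 0 with limma-voom. All 8 had negative log2 fold changes, with scores from 6.31 to 6.56 against 6.65 to 6.73. Microglia markers had 0 of 8 called with edgeR, 2 higher with DESeq2, 1 higher with limma-voom and 5 at an unadjusted p under 0.05, with scores from 4.85 to 5.01 against 4.55 to 4.76. Astrocyte markers had 1 of 7 higher with edgeR, 2 with DESeq2 and 0 with limma-voom, and scores from 6.32 to 6.65 against 6.18 to 6.38. Slc1a2 alone among the 7 had a negative log2 fold change, -0.21 (edgeR adjusted p 0.258). With edgeR, 1 of 8 endothelial and mural markers was lower (Flt1) and 1 of 2 tested ependymal markers higher (Rsph1). Of 3 tested oligodendrocyte precursor markers 0 were called. DESeq2 and limma-voom gave the same calls for these lists. Gfap, P2ry12 and Gpr17 were at 0, and their spans are wholly shared with other listed genes. The part of these markers in the channel gene differences was not tested, as the covariate fit holds only the cortical marker score.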

How the data were processed

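Gene counts of 6 libraries were analysed. The authors deposited raw counts per gene, whole numbers without normalization, per the file headers and values. The submitters' processing notes list STAR 2.7.0 and featureCounts 1.5.0-p3, beside Trim Galore 0.4.4, bcl2fastq 1.8.4 and edgeR 3.20.9, and the build GRCm38.p6. The sources used here give neither annotation release nor strand setting. The length column equals each gene's listed span. None of 1237 protein-coding genes wholly covered by other listed genes had a count (0), against 9218 of 11380 that share no base, so reads in overlaps are absent and strand was not used. Gene identifiers and types came from GENCODE M21, of the same build.

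Genes with 10 or more counts in 3 or more libraries (17693) were fitted in R 4.3.3 with edgeR 4.0.16, TMM scaling and the 2-sided quasi-likelihood F-test, Gas5 minus GFP, with Benjamini-Hochberg adjustment over all of them and a threshold of 0.05. Each standard error is the size of the log2 fold change over the root of F. CPM are TMM scaled, and log2 CPM uses a pseudocount of 0.5. Level per length divides CPM by the kb that no other listed gene covers. The fit was tested on simulated counts of this comparison (17500 genes), where 70% of 50 genes changed by 0.5 and 94% of 50 changed by 1 on the log2 scale were called. The simulation gave every gene the same dispersion and drew the libraries independently. It checks that the fit runs correctly, and its rates may not hold for the real libraries. The common biological coefficient of variation was 8.29%. Within groups, every pair of libraries had a chi-square of at least 5.01 per degree of freedom, beyond sampling noise.

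Alternatives were other scalings and filters, DESeq2 1.42.0, limma-voom (limma 3.58.1), robust dispersion, a block for the replicate letter, a cortical marker score as a covariate, the span trend removed, overlapping genes left out, and each library left out. Members passing the threshold or an unadjusted p of 0.05 are given with values in every library, with the member of highest level per kb in each role group, the called partners, and otherwise the 2 partners of smallest p per list. Results of 3 tested members are not reported here. Other members, partners and marker genes were named after their values were seen. The members and lists were chosen with earlier results of these data known.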

Additional observations from a re-analysis of the deposited data

How the results depend on the processing

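The precision rests on 3 libraries a group, and the cause of each change below was not tested. Of 519 values of 30 channel genes under 18 alternatives, 456 kept direction and side of the threshold, 15 passed it, 12 no longer did and 36 changed sign, 19 of these in the fit with the cortical marker covariate and 0 among the 3 called genes. Channel genes called higher and lower were 0 and 3 with edgeR as reported, 1 and 7 without an expression filter, and 1 and 7 with DESeq2. Over all genes the calls were 259 higher and 697 lower, with 656 higher without a filter and 491 higher with DESeq2. Whether the replicate letters pair the samples could not be told from 3 libraries a group, and the reported fit did not pair them. The correlation of deviations within a letter was 0.218, 0.219 and -0.0977 for A, B and C. Gas5 A and Gas5 B correlated best with the GFP library of their own letter, and Gas5 C did not. A replicate block gave 1 channel gene higher (Cacna2d2, adjusted p 0.0384) and 6 lower (Scn8a among them, 0.0158), and 507 genes higher in all. With the covariate 0 channel genes were lower, their median was 0.02 against -0.11, 0 and 0 genes were called in all (edgeR, 389 at an unadjusted p under 0.05), and Gas5 kept 0.38 with an adjusted p of 1.0. Leaving out genes that overlap others, which leaves 14 tested channel genes, gave a median of -0.25 and 117 genes higher and 299 lower. With 1 library left out, 0 to 1 channel genes were higher and 1 to 6 lower, the median ran from -0.19 to -0.084, all genes from 3 to 245 higher and 88 to 608 lower, and Gas5 from 0.33 to 0.42, where its call was lost without GFP B (adjusted p 0.0733) and GFP C (0.0689). Without GFP B or GFP C only 105 and 88 genes were lower and 3 and 4 higher, and 1 channel gene; without Gas5 A 113 genes were higher.

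With the covariate, log2 fold changes that changed sign were Cacna1s 0.45, Cacna1b 0.13, Cacnb4 0.32, Scn9a -0.45, Hcn3 -0.22, Cacna2d1 0.018, Cacna1c 0.26, Cacna2d4 1.02, Cacna1a 0.12, Scn3b -0.18, Scn4b 0.40, Cacna2d2 -0.11, Cacnb1 0.15, Cacna2d3 0.40, Cacna1d 0.24, Cacna1i 0.32, Scn8a 0.17, Cacna1h 0.34, Cacna1f -0.51, Fgf13 -0.024, Cacng2 0.054, Stac2 0.020, Cabp1 0.33, Flna 0.11 and Unc80 0.0024. Cacna2d3 was at 0.00017 with upper quartile scaling and 0.081 with the span trend removed. With 1 library left out, values on both sides of 0 were found for Scn3b (-0.031 to 0.080), Scn4b (-0.22 to 0.077), Cacnb1 (-0.10 to 0.012), Cacna2d3 (-0.085 to 0.057), Cacna1s (-0.39 to 0.12), Cacna1e (-0.014 to 0.050), Scn7a (-0.17 to 0.13), Cacnb2 (-0.014 to 0.13) and Hcn3 (-0.022 to 0.16).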

Other observations

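Scn4b and Scn2b lie close together on chromosome 9, at 45138395 to 45154152 and 45117782 to 45130070. The counts describe Scn4b in full, but give no value for Scn2b, so the balance between these beta subunits cannot be read from these tables. On chromosome 2, Scn3a, Scn2a, Scn1a, Scn9a and Scn7a lie in 1 stretch from 65457118 to 66784914, and their log2 fold changes were -0.10, -0.10, -0.32, 0.15 and -0.03. Of these 5 genes 1, Scn1a, passed the edgeR test.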
